A study of Mus musculus with 12 samples.

Results

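Alveolar type 2 epithelial cells (AEC2) that carry the C185G mutation of Sftpc were compared with AEC2 of genotype C185Gneo, which the series calls a hypomorphic control. The comparison uses 8 of the 12 libraries of the series, 4 with genotype SP-C C185G and 4 with genotype SP-C C185Gneo, and the remaining 4, with genotype SP-C WT, serve as a reference level. All mice were female, of strain Bl6 and at postnatal day 56. Every group, WT included, was injected with tamoxifen (200 mg per kg, intraperitoneal, 2 days), and AEC2 were isolated on day 7. Per the labels, perfused lungs were digested with Dispase, dissociated mechanically and treated with DNase; plastic adherence took away mesenchymal cells, magnetic beads took away CD45+ cells, and total RNA was sequenced. The recombinase, the promoter that drives it and what neo stands for are unknown from the labels. Whether each library stands for its own mouse is not stated either, so p-values measure only sample-to-sample spread, part of which may be technical. Libraries were grouped by the genotype field. Their titles run differently, with the name C185G on the C185Gneo libraries and C8C on the C185G libraries. The series asks how AEC2 transcripts differ once the mutant protein is made, with WT and the hypomorph as controls.

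Sftpc encodes the precursor of surfactant protein C (SP-C), a hydrophobic peptide that AEC2 cut out of a longer membrane protein on its way to the lamellar bodies, where surfactant is stored. The C-terminal BRICHOS domain of that precursor acts as a chaperone for it within the endoplasmic reticulum (ER), and mutations there can make the precursor misfold. Misfolded ER proteins are handled by chaperones, by the sensors of the unfolded protein response (UPR), and by export to the cytosol, where the proteasome degrades them.

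The residue named by C185G is a cysteine, coded by TGT at chr14:70521353-70521355 on the minus strand of GRCm38, in the last of its 5 coding exons. The reference sequence of the last 17 codons, residues 177 to 193, at chr14:70521329-70521379, is shown because it holds that codon, printed in capitals. The deposited values hold no sequence, so the mutation itself was not read.
Sftpc, end of the coding sequence: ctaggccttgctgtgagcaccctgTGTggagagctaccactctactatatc

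The libraries were deep and the mutant group stood apart as a whole. Total counts over the 16080 measured genes ran from 15659512 to 23444287 in the 8 libraries and all pairs differed beyond sampling noise. The first principal component held 73.1% of the variance and separated all 4 C185G libraries from the other 8. C185Gneo replicate 1 lay apart on the second component, and it also had the lowest sums of mesenchymal and mesothelial markers, given with those genes. C185G replicate 1 was the mutant library nearest to the C185Gneo mean in 52.7% of the called genes.

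Levels are given as normalized CPM, read counts scaled by the authors' library factors and expressed per 1000000 of the mean total, and are not divided by gene length. Markers of the labelled cell type were high in both groups: Sftpb measured 8007 to 8443 CPM in C185Gneo and 3800.3 to 4401 in C185G, and Lamp3, a lamellar body protein, 1752 to 2171 and 424 to 768. Transcripts of other lung epithelium were present too, among them Scgb1a1 of club cells at 2359 to 3134 and 2381 to 2861 CPM. In bulk RNA, fewer cells of a type and less RNA per cell cannot be told apart.

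The mutant AEC2 held more Sftpc mRNA than the hypomorph and less than WT. In CPM, Sftpc measured 1079.5, 793, 936 and 772 in the C185Gneo libraries and 2848, 2471, 2954 and 3059 in the C185G libraries. The WT libraries ranged from 7211 to 7674, and no library of one genotype reached the range of another. Sftpc was higher in C185G than in C185Gneo by 1.67 on the log2 scale (SE 0.0978, limma adjusted p = 1.14e-08). Against WT the difference was -1.40 in C185G and -3.07 in C185Gneo on the same scale; both contrasts use the same WT libraries. By the genotype field, the lowest Sftpc was thus in the group called hypomorphic.

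**Figure D1:**
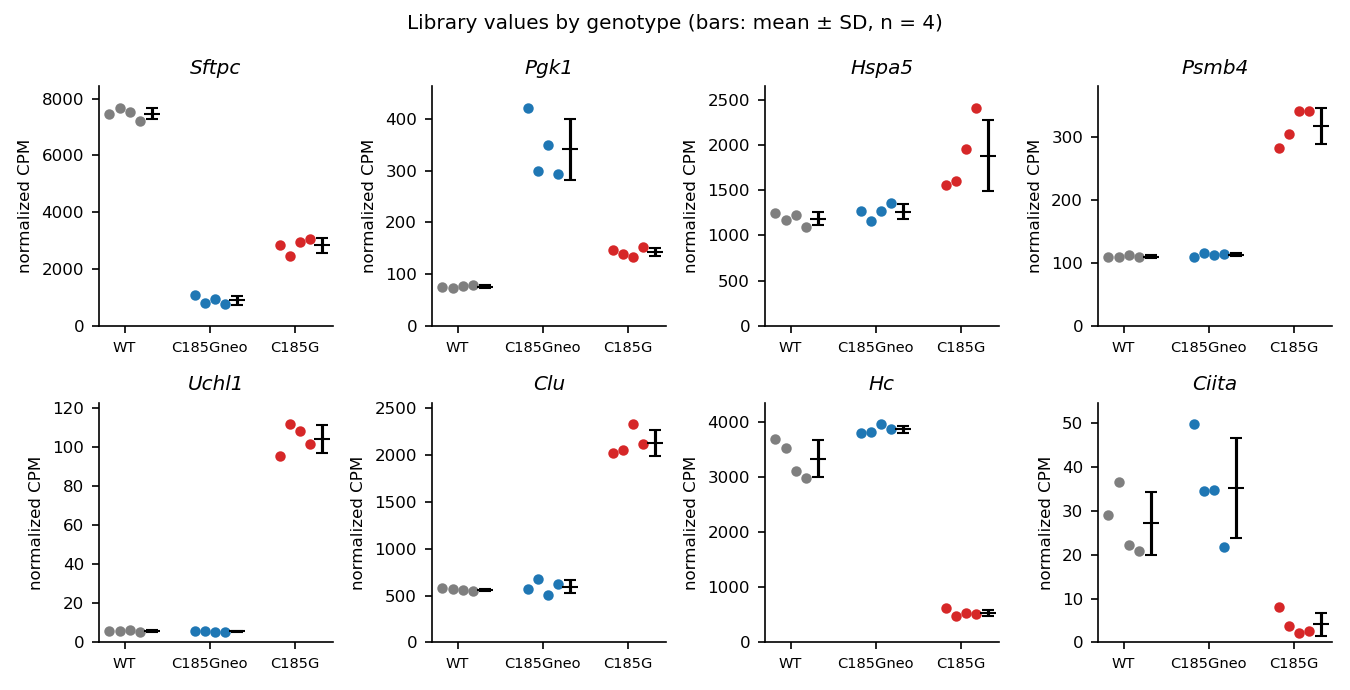
Normalized CPM of 8 genes in each library (y axis, from 0) by genotype (x axis), with 1 point per library and bars for the mean ± SD (n = 4). Sftpc and Pgk1 differ between both control genotypes, while Uchl1, Clu, Psmb4, Hc and Ciita were not called between WT and C185Gneo and stand apart in C185G.

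Over all genes, limma called 9298 (57.8%) (adjusted p under 0.05, Benjamini-Hochberg), with 4691 (29.2%) higher in C185G and 4607 (28.7%) lower. Many differences were small: 42% of the calls were under 0.5 on the log2 scale, 1030 genes (6.41%) were called and over 1 higher, and 1115 (6.93%) were called and over 1 lower. The library values of the groups did not overlap for 49.9% of genes. Of the calls, 7698 were made in the same direction with each of the 8 libraries left out in turn. In the same fit of all 12 libraries C185G against WT gave 8852 calls (55.0%), and C185Gneo against WT gave 87 (0.541%). With so many genes called, counts of list members below are read against 29.2% higher and 28.7% lower. Scaling by library totals in place of the authors' factors moved the median of all genes from 0.00 to 0.07 and the split of calls from 50.5% to 58.1% higher.

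**Figure D2:**
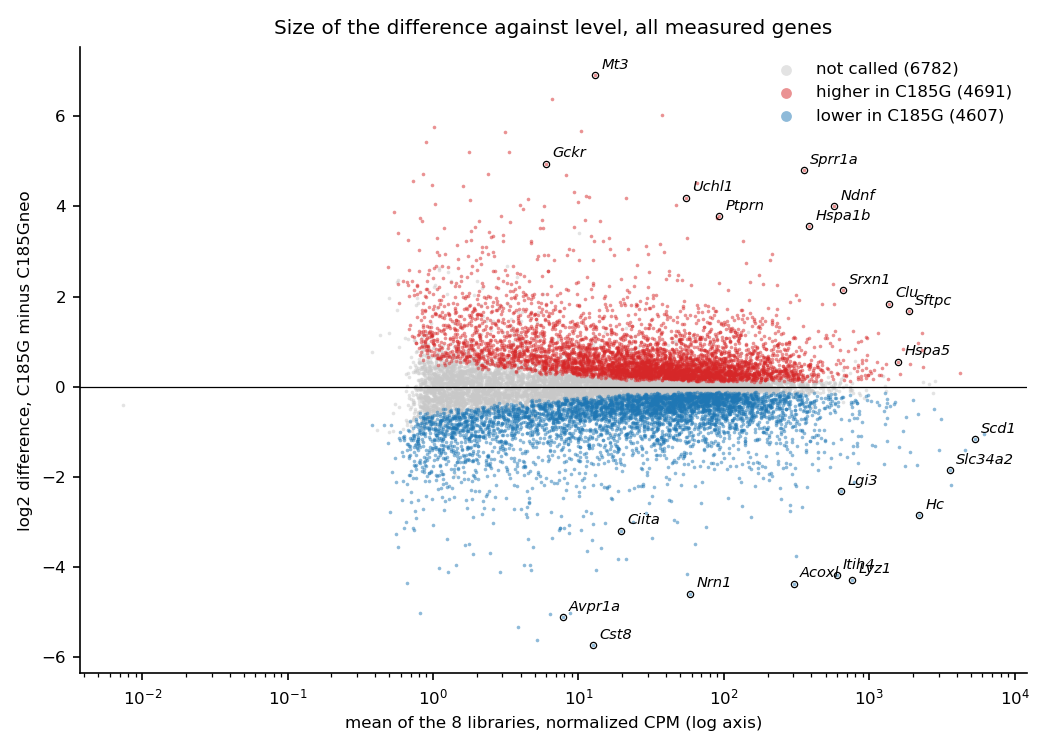
The log2 difference, C185G minus C185Gneo (y axis), against the mean normalized CPM of the 8 libraries (x axis, log scale) for the 16080 measured genes, with called genes in red (4691 higher) and blue (4607 lower). Sftpc lies among the abundant genes that were higher, at 1.67, while Slc34a2, Hc and Scd1 lie among the abundant genes that were lower.

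The largest increases included transcripts nearly absent from C185Gneo. Mt3, a metallothionein best known from brain, had 8, 2, 3 and 3 counts in the C185Gneo libraries and 431, 656, 454 and 428 in the C185G libraries (fitted log2 difference 6.91, adjusted p = 1.27e-07). Uchl1, a neuronal deubiquitinase also found in neuroendocrine cells, measured 5.73, 6.06, 5.35 and 5.51 CPM in C185Gneo and 95.5, 112, 109 and 102 in C185G (4.20, SE 0.0825, adjusted p = 8.47e-13). Ptprn, a protein of the membrane of dense-core secretory granules, went from 10.1, 12.1, 12.1 and 15.4 to 186, 219, 167 and 122 CPM (3.79, adjusted p = 3.74e-09). None of these groups overlapped.

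Ndnf, a secreted neurotrophic factor, was the most abundant of the 12 largest increases, at 56.4, 61.5, 83.9 and 69.7 CPM in C185Gneo and 901, 1088, 1154 and 1186 in C185G (4.0, adjusted p = 1.39e-08). Sprr1a, a cornified envelope protein, stood at 24.7 ± 4.26 and 686 ± 72.8 (SD, n = 4), and Gsta1, a glutathione S-transferase, at 5.77 ± 2.97 and 87.8 ± 12.5. Both have close paralogs, so how reads were shared among copies is uncertain.

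The rest of the 12 were Saa3, an acute-phase serum amyloid (4.22), Prg4, the lubricant lubricin (4.18), Adm2, an adrenomedullin-like peptide (4.10), Afp, alpha-fetoprotein (3.70), Vipr2, a receptor of vasoactive intestinal peptide (3.68), and Gckr, the regulator of glucokinase (4.95), with adjusted p between 6.16e-10 and 3.08e-07. A further 8 predicted genes, pseudogenes or receptor segments were as large and are counted only.

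The largest decreases left little of transcripts that C185Gneo held at up to 1361 CPM. Acoxl, an acyl-CoA oxidase-like gene, measured 641, 547, 584 and 529 CPM in C185Gneo and 50.3, 25.5, 25.1 and 18.2 in C185G (-4.37, SE 0.248, adjusted p = 1.09e-07). Itih4, a liver-type plasma protein of the inter-alpha inhibitor family, measured 1319, 1361, 761 and 1088 CPM in C185Gneo and 65.7, 46.1, 76.0 and 59.3 in C185G (-4.18, adjusted p = 4.86e-08). In each case the lowest C185Gneo library was many times the highest C185G library.

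Nrn1, neuritin, a membrane-anchored neurotrophic protein, fell by 4.6, from 113 ± 12.1 to 5.06 ± 2.79 CPM (n = 4 each, adjusted p = 7.57e-08). The others that fell were Cst8, a cystatin (-5.73), Zmat4, a zinc finger gene (-5.63), Avpr1a, a vasopressin receptor (-5.12), Fbn2, fibrillin 2 of microfibrils (-5.05), Hes2, a Hairy-type repressor (-5.03), Bpifb5, a BPI fold protein (-4.07), and Proz, a coagulation cofactor (-3.83). Lyz1, described with the surfactant genes, belongs to this group by size.

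Tg, thyroglobulin, was uneven among the controls, with 14.5, 11.3, 275 and 131 CPM in the C185Gneo libraries against 3.86, 2.42, 2.62 and 2.34 in C185G (-4.15, adjusted p = 0.00237). Its groups did not overlap, but the call was lost with voom weights (adjusted p = 0.0661).

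Against C185Gneo, the surfactant programme was lower in the mutant although Sftpc itself was higher. Against WT, Sftpc was lower in C185G too, and the median of the surfactant and lamellar body list was -1.205. The surfactant and lamellar body list leaves out Sftpc and also holds other AEC2 genes such as Lyz1. Of its 29 measured genes, 25 fell and 1 rose, with a median of -1.24 beside 0.00 over all genes. Slc34a2, the phosphate transporter of the AEC2 surface, measured 6063, 5558, 5319 and 5322 CPM in C185Gneo and 1858, 1664, 1585 and 1173 in C185G (-1.84, SE 0.126, adjusted p = 6.78e-08). Abca3, the lipid pump of the lamellar body, measured 3279.6, 2894, 2553 and 2512 CPM in C185Gneo and 1220.2, 1026, 1044 and 820.4 in C185G (-1.46, adjusted p = 3.2e-07). Neither pair of groups overlapped.

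The collectin genes Sftpa1 and Sftpd fell by 1.41 and 0.67, and Sftpb, which encodes the other hydrophobic surfactant protein, by 1.05. Quantile normalization, which forces the same distribution on each library, brought Sftpb to -0.15 and ended its call (adjusted p = 0.0582), Sftpa1 to -0.91 and Sftpd to -0.41. Napsa, an aspartic protease that processes proSP-B, fell by 1.5 and Lamp3 by 1.72. Ctsh, cathepsin H, which also processes surfactant proteins, was the member that rose (1.0, adjusted p = 2.49e-07).

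Hc, complement component C5, an abundant AEC2 transcript in mice, had 3797, 3812, 3952 and 3874 CPM in C185Gneo and 617, 478, 535 and 508 in C185G, a fall of 2.86 (adjusted p = 3.28e-11). The small calcium-binding protein gene S100g fell by 3.11, the chitinase-like gene Chil1 by 1.77, and the lysozyme genes Lyz1 and Lyz2 by 4.28 and 2.18; reads of such close paralogs can be split wrongly, so their separate values are uncertain.

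Transcription factors of lung epithelium were lower by less. Among 24 of them 17 fell and 3 rose (median -0.37). Etv5, an effector of fibroblast growth factor signals that maintains AEC2, measured 1002, 857, 680.2 and 659.8 CPM in C185Gneo and 372, 299, 353 and 314 in C185G (-1.24, adjusted p = 1.93e-05). Cebpa, which drives surfactant and lipid genes, fell by 1.11, Elf5 by 1.31, Id2, a marker of the distal lung epithelium, by 1.23, and Elf3 by 0.94. Nkx2-1, the lineage factor of lung epithelium, fell by 0.30 (adjusted p = 0.00689), with 415, 371, 390.3 and 329.9 CPM in C185Gneo and 267, 303, 343 and 310.0 in C185G, where the ranges overlapped. Foxa2, a partner of Nkx2-1, rose by 0.38, Klf5 by 0.36 and Tead1, a partner of the YAP coactivator, by 0.28.

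Lipid synthesis genes were lower almost throughout. In the cholesterol pathway 24 of 25 genes fell and 1 rose (median -1.25). Dhcr7, the reductase of the last step, measured 56.6, 53.1, 43.8 and 48.8 CPM in C185Gneo and 8.81, 7.87, 5.61 and 7.02 in C185G (-2.80, SE 0.169, adjusted p = 3.08e-08). Insig1, the ER protein that retains the sterol sensor, fell by 1.72, Nsdhl, an enzyme of the late pathway, by 1.62, and Acat2, a thiolase, by 1.31. The exception was Pmvk, phosphomevalonate kinase, at 87.2, 99.4, 207 and 193 CPM in C185Gneo and 253, 343, 325 and 371 in C185G (1.23, adjusted p = 0.00328); its groups did not overlap, but C185Gneo replicates 3 and 4 were well above replicates 1 and 2.

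For fatty acids and phospholipids 21 of 26 genes fell and 1 rose (median -0.69). The acyltransferase gene Gpam fell by 1.95 and the desaturase genes Fads1 and Fads2 by 1.91 and 1.79. Fasn, fatty acid synthase, measured 4628, 4302, 4264 and 4274 CPM in C185Gneo and 1787, 1572, 1825 and 1408 in C185G (-1.41, adjusted p = 4.27e-08), and Acly, which supplies its acetyl-CoA, fell by 1.47. Scd1, a desaturase of surfactant lipid synthesis, fell by 1.16 (adjusted p = 2.52e-05), a call that ended with quantile normalization (-0.31, adjusted p = 0.185). Pcyt1a, the rate-limiting enzyme of phosphatidylcholine synthesis, was the member that rose (0.20, adjusted p = 0.00527).

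MHC class II, which AEC2 express without being professional antigen-presenting cells, was lower in 9 of 10 measured genes (median -1.83). Ciita, the master coactivator of these genes, measured 49.8, 34.6, 34.9 and 21.7 CPM in C185Gneo and 8.03, 3.77, 2.23 and 2.65 in C185G (-3.20, adjusted p = 3.25e-05). H2-Aa, a chain of the class II molecule, measured 503, 389, 442 and 348 CPM in C185Gneo and 72.2, 57.0, 90 and 80.3 in C185G (-2.50, adjusted p = 2.47e-08). Both genes had groups that did not overlap. Cd74, the invariant chain, fell by 1.32, H2-DMa, a peptide-loading chaperone, by 2.20, and H2-Ob, at a low level in both groups, did not pass (0.09). Class II is also the mark of dendritic cells and macrophages, and the part of such cells in these values was not tested. Ptprc, the CD45 gene that was the target of depletion, had 161, 148, 106 and 133 unscaled read counts in C185Gneo. In C185G it had 133, 182, 136 and 152, and it did not pass (0.14, limma adjusted p = 0.437).

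The proteasome rose as a unit. All 14 subunit genes of the core particle, which cuts proteins, and all 18 of the regulatory particle, which unfolds them, were higher in C185G, with medians of 1.32 and 1.38. Psmb4 measured 109.8, 115, 113 and 114 CPM in C185Gneo and 283, 305, 342 and 341 in C185G (1.49, SE 0.059, adjusted p = 6.18e-10). Psmd14, the deubiquitinase of the regulatory particle, measured 29.6, 37.3, 31.7 and 32.2 CPM in C185Gneo and 99.2, 114, 123 and 122 in C185G (1.81, adjusted p = 1.26e-09). The smallest increase among these genes was 0.97, of Psma3.

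The list stayed close to a common size: core subunits ran from 0.97 to 1.69 and regulatory subunits from 1.1 to 1.81. In the immunoproteasome and MHC class I list, by contrast, 4 of 13 genes rose and 3 fell (median 0.03). The interferon-inducible catalytic subunit genes Psmb10 and Psmb9 fell by 0.59 and 0.38, and Psmb8 did not pass (-0.22, adjusted p = 0.167).

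Among 14 genes of proteasome assembly and of its transcription factor NFE2L1, 10 rose and 1 fell. The assembly chaperone genes Pomp and Psmd5 rose by 0.94 and 0.90 and Psme4, an alternative activator, by 0.86. Nfe2l1 itself, whose product drives proteasome genes when degradation fails, measured 325, 319.9, 331 and 334 CPM in C185Gneo and 364, 340.3, 343 and 344 in C185G and did not pass (0.09, adjusted p = 0.11); it passed with library totals, voom weights or quantile normalization. Ddi2, the protease that activates NFE2L1, fell by 0.47 (adjusted p = 1.58e-05).

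Of 18 ubiquitin genes and deubiquitinases, 13 rose and 2 fell. Usp14 and Usp5, which trim and recycle ubiquitin chains, rose by 1.40 and 1.21.

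In ER-associated degradation, the route from the ER to the proteasome, 10 of 21 genes rose and 3 fell (median 0.11). Vcp, the ATPase that pulls substrates out, measured 320.4, 338, 316 and 315 CPM in C185Gneo and 547, 607, 631 and 610.1 in C185G (0.89, adjusted p = 1.03e-08). Its cofactor genes Nploc4 and Ufd1 rose by 1.46 and 1.22 and its membrane anchor Ubxn4 by 0.79. The 3 that fell were Herpud1 (by 0.54), Selenos (by 0.44) and Derl3 (by 0.90), which encode ER membrane proteins of this route.

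The chaperones and foldases of the ER lumen did not rise as a group. Of 25 genes 5 rose and 9 fell, with a median of -0.12. With library totals as the scaling, 8 were higher. Against WT the list median was -0.03 in C185G and 0.10 in C185Gneo, so the control lay slightly above WT. The summed level was 6412 to 6623 CPM in C185Gneo and 6329 to 7109 in C185G. Hspa5, the chaperone BiP, measured 1269, 1155, 1267 and 1359 CPM in C185Gneo and 1557, 1602, 1958 and 2408 in C185G (0.56, SE 0.115, adjusted p = 0.00105). Its groups did not overlap. Pdia6, a disulfide isomerase, went the other way, from 394, 393, 367 and 356 to 256, 254, 239.8 and 239 CPM (-0.61, adjusted p = 4.17e-07). Dnajc3, a cochaperone of BiP, fell by 0.30, Calr, calreticulin, by 0.26 (-0.17 with quantile normalization) and the prolyl isomerase gene Fkbp2 by 0.74. Hsp90b1, the ER paralog of HSP90, measured 528 and 510.3 CPM and did not pass (-0.05). The ER peroxiredoxin gene Prdx4 and the oxidase gene Ero1l rose by 0.54 and 0.49.

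The promoters of Hspa5, Pdia6, Dnajc3 and Calr hold the ER stress element, to which ATF6 binds with a partner. They are shown because this element is shared while the direction is not: Hspa5 rose and Pdia6, Dnajc3 and Calr fell. Each line gives RefSeq sequence upstream of the gene's start (GRCm38.p6), 5′ to 3′ on the gene's strand, with the match to CCAAT and CCACG 9 bases apart, or its reverse complement, in capitals. The positions are chr2:34771985-34772083 (plus strand), chr12:17266451-17266549 (plus), chr14:118937787-118937885 (plus) and chr8:84847035-84847133 (minus).
Hspa5: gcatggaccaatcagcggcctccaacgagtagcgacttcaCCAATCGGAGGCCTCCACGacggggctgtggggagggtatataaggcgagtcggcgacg
Pdia6: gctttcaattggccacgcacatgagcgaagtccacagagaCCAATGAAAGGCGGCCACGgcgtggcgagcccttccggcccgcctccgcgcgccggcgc
Dnajc3: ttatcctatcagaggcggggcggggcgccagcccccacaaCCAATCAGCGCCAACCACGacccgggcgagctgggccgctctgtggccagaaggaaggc
Calr: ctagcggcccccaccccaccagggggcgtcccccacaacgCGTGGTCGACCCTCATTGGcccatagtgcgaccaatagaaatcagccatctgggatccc
Within 300 bases around the start (250 before and 50 after, both strands searched), 7 of 20 ER chaperone genes with an entry held this element (35.0%), against 19 of 11463 measured genes with an entry (0.166%). Besides these 4 they were Canx (-0.14), Creld2 (-0.12) and Hsp90b1, none of which passed, though Canx did in 7 of the alternatives (adjusted p = 0.0429 with the replicate block). A match describes these letters only and is not evidence of binding.

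The sensors of the UPR differed little or did not pass. Ern1, which encodes IRE1, measured 125, 120.5, 112 and 111 CPM in C185Gneo and 148, 107, 106 and 100.1 in C185G and did not pass (-0.04, adjusted p = 0.778), nor did Eif2ak3, which encodes PERK (-0.00102, adjusted p = 0.992). Atf6 rose by 0.15 (adjusted p = 0.0327), a call lost with the replicate block (adjusted p = 0.0507), without trend and robust fitting, and without C185Gneo replicate 2 or 4 or C185G replicate 2 or 3 (adjusted p up to 0.0848). Xbp1, the transcription factor downstream of IRE1, fell by 0.29, with 220.4, 223, 217 and 237 CPM in C185Gneo and 183, 202, 184 and 168 in C185G (adjusted p = 0.00215). Its spliced form cannot be seen in counts per gene.

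Over the 26 genes of the sensors, the XBP1 branch and the translocation machinery, 9 rose and 11 fell (median -0.08). Creb3l2, a relative of ATF6, fell by 0.75 and Mbtps1, the protease that cuts ATF6, by 0.44. Wfs1, an ER membrane protein of calcium handling, was the largest increase, from 53.3, 45.8, 45.7 and 45.9 to 84.6, 98.9, 106 and 129 CPM (1.12, adjusted p = 8e-07).

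Genes that ATF4 drives in amino acid supply were higher. Of 37 measured targets of PERK and ATF4, 23 rose and 6 fell (median 0.62), and all 20 cytosolic aminoacyl-tRNA synthetase genes rose (median 0.64). Asns, asparagine synthetase, measured 28.2, 32.4, 26.1 and 30.0 CPM in C185Gneo and 91.6, 81.4, 82.8 and 95.3 in C185G (1.59, SE 0.083, adjusted p = 4.5e-09). Phgdh, the first enzyme of serine synthesis, rose by 2.23, Mthfd2 of mitochondrial folate metabolism by 1.68, and the amino acid transporter genes Slc7a3 and Slc7a11 by 2.29 and 1.75. The pseudokinase gene Trib3, a feedback inhibitor, measured 29.5, 26.0, 17.8 and 23.2 CPM in C185Gneo and 95.3, 53.7, 65.4 and 70.2 in C185G (1.55, adjusted p = 1.28e-05).

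Other members of the list rose by less or fell. Ddit3, which encodes the proapoptotic factor CHOP, measured 24.8, 24.1, 24.7 and 27.3 CPM in C185Gneo and 45.6, 26.4, 34.9 and 44.2 in C185G (0.55, adjusted p = 0.00473), and C185G replicate 2 lay below the highest C185Gneo library. Against WT its difference was 0.23 (adjusted p = 0.187). Atf4 itself fell by 0.23, a call that ended with quantile normalization (-0.13, adjusted p = 0.0828), Atf3 fell by 0.55, Ppp1r15a, the phosphatase subunit that restores translation, by 0.46, and Vegfa by 0.57.

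The promoters of Asns, Aars (alanyl-tRNA synthetase, 1.02) and Slc7a11 are shown because they rose and hold the core of the element to which ATF4 binds with C/EBP partners, TGATGNAA or its reverse complement, in capitals. Sequences are as above, at chr6:7693210-7693272 (minus strand), chr8:111033690-111033777 (plus) and chr3:50443614-50443700 (minus).
Asns: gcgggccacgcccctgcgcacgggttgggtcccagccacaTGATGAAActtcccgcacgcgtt
Aars: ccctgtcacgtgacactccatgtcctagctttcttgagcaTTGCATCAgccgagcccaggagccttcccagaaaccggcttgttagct
Slc7a11: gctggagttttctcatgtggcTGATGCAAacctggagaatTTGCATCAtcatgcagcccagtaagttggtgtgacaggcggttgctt
This core stood in 9 of 31 promoters of the PERK and ATF4 list (29.0%) and in 5 of 12 synthetase promoters (41.7%), against 2.82% of the 11463. These lists share Aars, and Slc7a11 holds the core on both strands. The 9 of the PERK and ATF4 list include Trib3, which rose, and Atf3, which fell, so the core was not confined to genes that rose.

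Cytosolic chaperones were higher: of 25 heat shock and chaperonin genes 21 rose (median 0.75), and 1 was lower without C185G replicate 1. Hspa8, the constitutive HSP70, measured 575, 534, 909 and 823 CPM in C185Gneo and 1715, 1316, 1804 and 1534 in C185G (1.19, adjusted p = 3.58e-05). The small heat shock protein gene Hspb1 measured 54.7, 68.2, 95.8 and 108 CPM in C185Gneo and 459, 331, 409 and 327 in C185G (2.26, adjusted p = 1.99e-06). The inducible genes Hspa1a and Hspa1b rose by 2.28 and 3.56; they are near-identical, so only their joint rise is certain. Hsp90aa1 rose by 1.02 and the chaperonin subunit genes Cct3 and Cct7 by 1.21 and 0.75.

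NRF2 controls antioxidant genes, and of 29 of its targets 23 rose and 2 fell (median 0.95). Srxn1, sulfiredoxin, measured 186, 228, 227 and 346 CPM in C185Gneo and 896, 956, 1243 and 1165 in C185G (2.14, adjusted p = 7.69e-07), and Gclc, the catalytic subunit of glutathione synthesis, 1118, 1273, 1469 and 1736 CPM in C185Gneo and 2671, 2946, 3850.5 and 3276 in C185G (1.19, adjusted p = 6.01e-06, and 1.81 with quantile normalization). The reductase genes Akr1b8 and Nqo1 rose by 2.95 and 1.86, Taldo1 of the pentose phosphate pathway by 1.93 and the haem oxygenase gene Hmox1 by 1.09. Nfe2l2, which encodes NRF2, rose by 0.40, whereas Gstm1 and the malic enzyme gene Me1 fell by 0.29 and 0.28. The antioxidant response element TGACNNNGC stood in 9 of 23 promoters of this list (39.1%), in 5 of 26 of the proteasome (19.2%) and in 16.9% of all.

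In the plot of list medians by library, all 4 C185G libraries lie on 1 side of the C185Gneo libraries for each of its 8 lists. For the ER chaperones the distance is small and the WT libraries reach further down, to -0.17.

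Besides Mt3, the metallothionein genes Mt1 and Mt2, which bind zinc and copper, rose by 0.60 and 0.62 (adjusted p = 9.67e-05 and 0.000243).

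**Figure D3:**
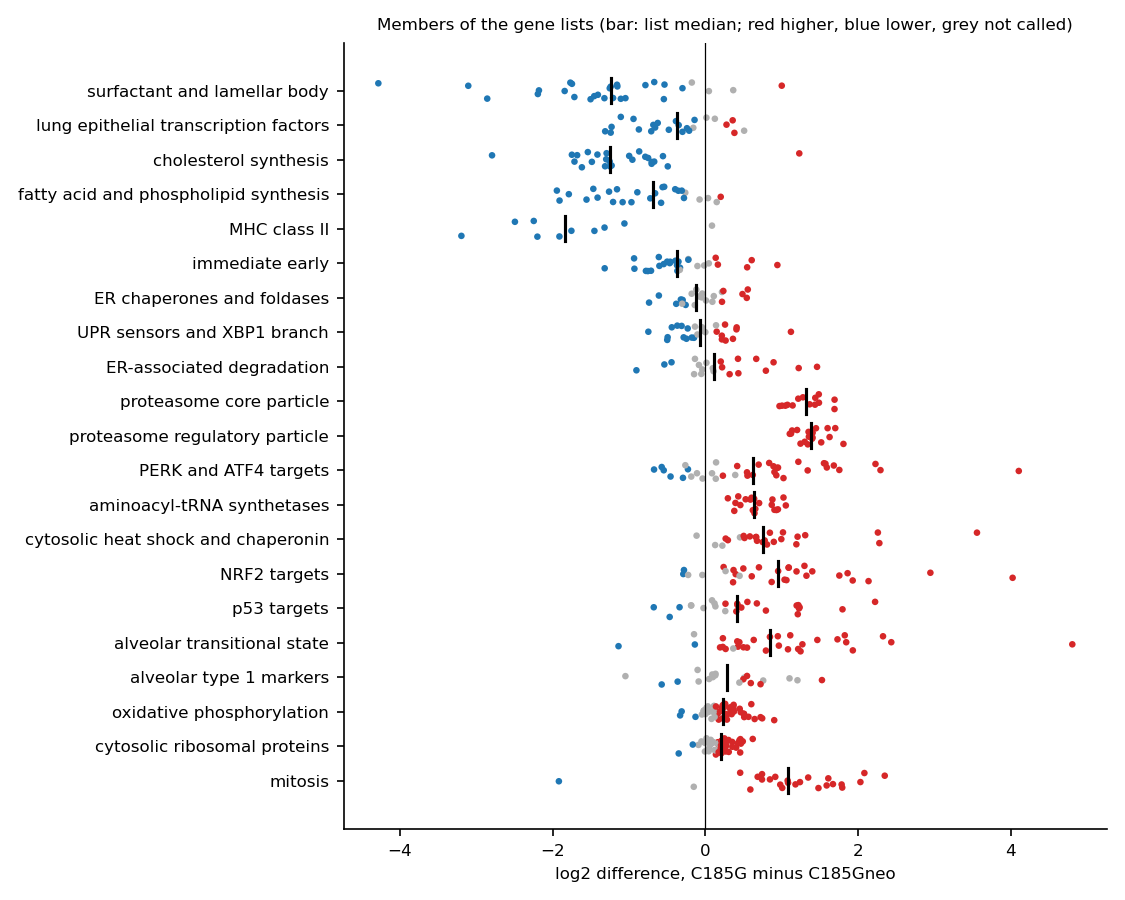
Log2 differences, C185G minus C185Gneo (x axis), of each measured member of 21 gene lists (y axis), with 1 point per gene, red for called higher, blue for called lower, grey for not called, and a black bar at the list median. Both proteasome lists lie wholly to the right (medians 1.32 and 1.38), MHC class II and cholesterol synthesis lie to the left (medians -1.83 and -1.25), and the ER chaperones straddle 0 (median -0.12).

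**Figure D4:**
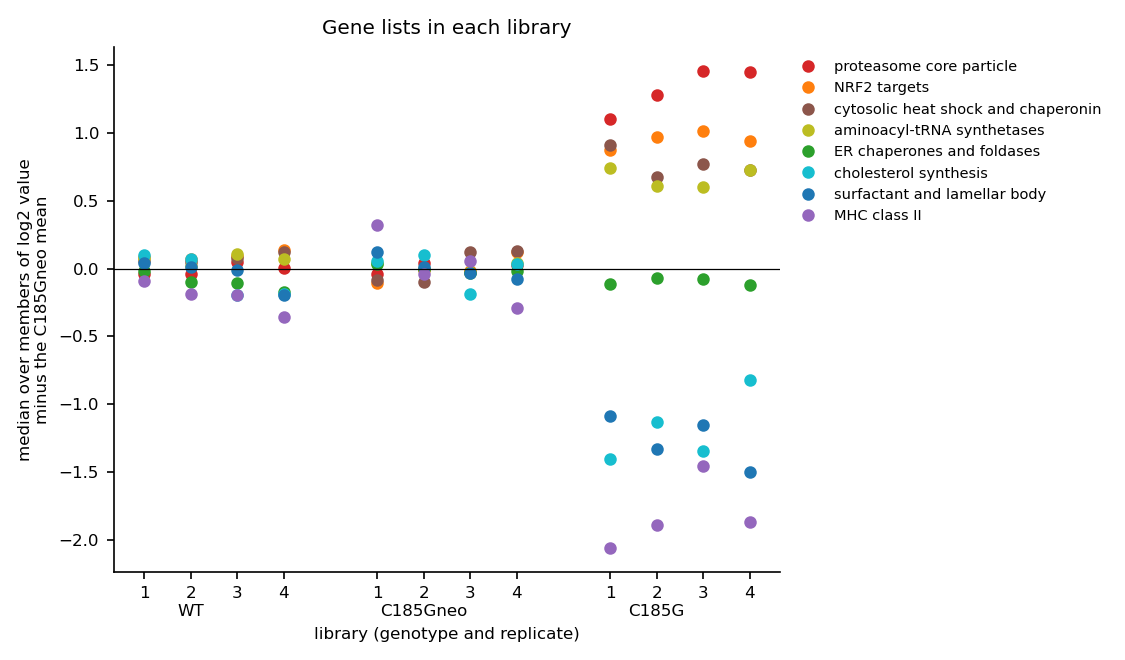
Median over the members of 8 gene lists (colours) of the log2 value minus the C185Gneo mean (y axis), in each library (x axis, replicate number and genotype). The WT and C185Gneo libraries lie between -0.36 and 0.32, and all 4 C185G libraries lie above 0 for the proteasome core, NRF2 targets, heat shock genes and synthetases and below 0 for MHC class II, surfactant and cholesterol synthesis.

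Markers of the transitional state between AEC2 and alveolar type 1 (AT1) cells, which appears in injured lungs, were mostly higher: 27 of 31 measured genes rose and 2 fell, or 1 without C185Gneo replicate 4 or C185G replicate 3 or 4 (median 0.84). Clu, a secreted chaperone, measured 575, 676, 508 and 624 CPM in C185Gneo and 2022, 2058, 2330.3 and 2115 in C185G (1.84, SE 0.0774, adjusted p = 9.02e-10). Lgals3, galectin 3, measured 224, 257, 256 and 274 CPM in C185Gneo and 805, 812, 1026 and 952 in C185G (1.83, adjusted p = 8.22e-09). Krt8, the keratin after which the state is often named, measured 1393, 1672, 1606 and 1646 CPM in C185Gneo and 2202, 2249, 2183 and 2269.8 in C185G, a smaller difference (0.50, adjusted p = 1.64e-05). None of these groups overlapped.

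Ndrg1, a stress-responsive gene, rose by 2.33, S100a6, a calcium-binding protein gene, by 1.93, Sfn, the 14-3-3 sigma gene, by 1.08, Krt7 by 0.96, and Areg, an EGF receptor ligand, by 0.95. Cdkn1a, the cell cycle inhibitor p21, measured 201, 219.8, 232 and 271 CPM in C185Gneo and 397, 357, 436 and 405 in C185G (0.79, adjusted p = 9.76e-06). Of 25 targets of p53, Cdkn1a counted, 15 rose and 3 fell (median 0.42). Those that rose include Phlda3 (1.80), the proapoptotic gene Bax (1.23), Zmat3 (1.23) and Ccng1 (1.21), while Rrm2b and Btg2 fell by 0.68 and 0.47.

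Markers of mature AT1 cells showed no common direction. Of 20 genes 5 rose and 2 fell (median 0.29), and the median was 0.13 without C185Gneo replicate 1 and 0.51 without C185G replicate 1. Ager, the AT1 receptor RAGE, measured 959, 933, 970.0 and 869 CPM in C185Gneo and 673, 742, 739 and 745 in C185G (-0.36, adjusted p = 0.000521), while Pdpn, podoplanin, rose by 1.53, from 14.4, 29.6, 30.9 and 42.3 to 44.4, 95.9, 85.7 and 105. Aqp5, a water channel (-0.09), and Hopx, a homeodomain cofactor (0.51), did not pass; Hopx did without C185G replicate 1 (adjusted p = 0.0493) and Aqp5 without C185Gneo replicate 4 (adjusted p = 0.0407).

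Cell cycle genes were higher from a low level. Of 25 mitotic genes 23 rose and 1 fell (median 1.08), and of 30 DNA replication genes 19 rose and 2 fell, or 1 without C185Gneo replicate 1 or 2 or C185G replicate 3 (median 0.61). Top2a, topoisomerase of dividing cells, measured 14.3, 7.22, 14.3 and 8.94 CPM in C185Gneo and 34.0, 35.7, 25.1 and 35.7 in C185G (1.59, adjusted p = 2.11e-05). Cdk1, the mitotic kinase, rose by 2.03 and Rrm2, a ribonucleotide reductase subunit, by 1.68. Bub1 of the spindle checkpoint was the mitotic gene that fell, from 18.5, 14.8, 15.3 and 15.2 to 5.10, 3.59, 2.94 and 5.67 CPM (-1.92, adjusted p = 8.6e-07). Which cells held these transcripts was not tested.

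Genes of ribosome assembly in the nucleolus rose in 27 of 30 cases (median 0.44), led by Nhp2 (1.05) and the nucleolar GTPase gene Gnl3 (0.82). Of 49 ribosomal protein genes 31 rose and 2 fell (median 0.20), and 1 fell without C185Gneo replicate 2, 3 or 4 or C185G replicate 1 or 2. Rpl12 rose by 0.62 and Rpl10 fell by 0.35.

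In oxidative phosphorylation 34 of 51 nuclear genes rose and 3 fell (median 0.24), with Uqcrq of the third respiratory complex up by 0.90 and Ndufb3 of the first complex down by 0.33. Glycolysis was split, with 8 of 20 genes higher and 6 lower. Pkm, pyruvate kinase, rose by 1.23, Eno1, an enolase, by 1.16 and Gapdh by 1.0, whereas Aldoc, the aldolase of brain, fell by 2.20 and Ldhb by 0.68.

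Immediate early genes, which answer growth signals and also tissue dissociation rapidly, were lower in 19 of 29 cases and higher in 5 (median -0.37), or in 3 without C185Gneo replicate 1 or 4 or C185G replicate 3. Nr4a1, an orphan nuclear receptor, measured 939, 1092, 1332 and 1374 CPM in C185Gneo and 493, 509.6, 475 and 406 in C185G (-1.32, adjusted p = 3.47e-07). Fos fell by 0.60 and Egr1 by 0.71, while Myc rose by 0.94 and Fosl1 by 0.61.

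Among 31 measured cytokine and chemokine genes 10 rose and 3 fell (median 0.36, and 0.24 without C185Gneo replicate 3). Ccl2, a monocyte attractant, measured 6.63, 16.6, 10.8 and 20.1 CPM in C185Gneo and 56.6, 73.4, 55.0 and 82.0 in C185G (2.40, adjusted p = 0.000149), and Csf2, the granulocyte-macrophage growth factor that AEC2 supply, fell by 1.91, from 9.19, 5.83, 5.24 and 8.07 to 2.32, 1.54, 2.18 and 1.42.

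Interferon response genes showed no common direction (10 of 30 higher, 6 lower), and the number higher was 5 without C185G replicate 3 and 6 without C185G replicate 2 or C185Gneo replicate 3. The antiviral gene Rsad2 rose by 2.96, and Stat2, a transducer of interferon signals, fell by 0.70.

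Complement and coagulation genes were split, with 13 of 25 higher and 8 lower. C3, the central complement protein, measured 1402, 1683, 1534 and 2117 CPM in C185Gneo and 2599, 3163, 3237 and 2774 in C185G (0.82, adjusted p = 2.57e-05, and 1.29 with quantile normalization), and F7, coagulation factor VII, fell by 2.77, alongside Hc, Itih4 and Proz.

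In the list of TGF-beta signalling and matrix, 19 of 31 measured genes rose and 4 fell (median 0.53, and 0.42 without C185Gneo replicate 1). Their summed level was 7151 to 7900 CPM in C185Gneo, 8564 to 8653 in WT and 8940 to 9882 in C185G, so C185Gneo lay below WT. Itgav and Itgb6, which form an epithelial integrin that activates TGF-beta, rose by 1.1 and 1.21; Itgb6 measured 73.1, 78.0, 57.0 and 78.0 CPM in C185Gneo and 135, 170.5, 175 and 183 in C185G (adjusted p = 1.6e-06). Timp1, a protease inhibitor, rose by 3.23, and Smad7 and Skil, inhibitors of the pathway, fell by 0.42 and 0.52.

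Mesenchymal markers rose in 13 of 20 cases (median 0.75), and 1 was lower without C185Gneo replicate 1. Their summed level was 1447, 2102, 2016 and 2069 CPM in the C185Gneo libraries and 2612, 2900.0, 2431 and 2968 in C185G. Col1a2, a chain of fibrillar collagen, measured 30.7, 71.7, 67.5 and 90.4 CPM in C185Gneo and 138, 162, 122 and 183 in C185G (1.30, adjusted p = 0.00293). The lowest library of the sum was C185Gneo replicate 1, without which the list had a median of 0.54, and C185Gneo lay below WT too (median -0.68). Over the same genes the median of C185G against WT was 0.37.

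Mesothelial markers, of the lung surface, rose in 5 of 8 cases, or 3 when only these 8 libraries were fitted (median 1.33, and 0.66 without C185Gneo replicate 1). The sum was 707, 1067, 1062 and 1393 CPM in C185Gneo and 1527, 1758, 1608 and 1592 in C185G. Against WT the median over these genes was -0.68 in C185Gneo and 0.61 in C185G. Wt1, a defining factor of mesothelium, measured 2.69, 14.8, 14.8 and 26.9 CPM in C185Gneo and 30.4, 44.8, 35.7 and 38.7 in C185G (1.72, adjusted p = 0.0214; 0.0513 when only these 8 libraries were fitted), and differed by 1.04 without C185Gneo replicate 1. The part of these cells in the matrix and transitional results was not tested.

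Endothelial markers fell in 13 of 19 measured cases (median -0.73). Their sum was 312, 332, 321 and 403 CPM in C185Gneo and 287, 291, 319 and 306 in C185G, so the ranges overlapped. The receptor gene Tie1, for example, measured 5.82, 5.06, 5.77 and 9.0 CPM in C185Gneo and 2.73, 2.51, 3.05 and 2.59 in C185G (-1.20, adjusted p = 0.000408). Ciliated cell markers fell in 7 of 18 cases, and in 4 without C185G replicate 4; Foxj1, their lineage factor, did not pass (0.17, adjusted p = 0.361).

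Macrophage and monocyte markers summed to 5903, 6187, 6049 and 6025 CPM in C185Gneo and 1822, 1445, 1514 and 1103 in C185G, and nearly all of that sum was Lyz2, which AEC2 also express. Of 16 measured members 6 rose and 2 fell; Cd68 rose by 0.71 and Ly6c2 fell by 1.18. A further 9 members of that list, Adgre1, Marco and C1qa among them, were not found among the 16080 measured genes.

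Neutrophil and lymphocyte markers summed to 43.1, 52.0, 34.6 and 33.7 CPM in C185Gneo and 86.2, 74.5, 46.1 and 145 in C185G, with 5 of 9 measured members higher and 2 lower, or 1 lower without C185Gneo replicate 1 or 3 or C185G replicate 2 or 3. S100a8, an alarmin of neutrophils, measured 1.03, 4.11, 1.49 and 1.04 in C185Gneo and 15.6, 11.5, 4.74 and 27.6 in C185G (2.93, adjusted p = 0.00464), highest in C185G replicate 4.

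**Figure D5:**
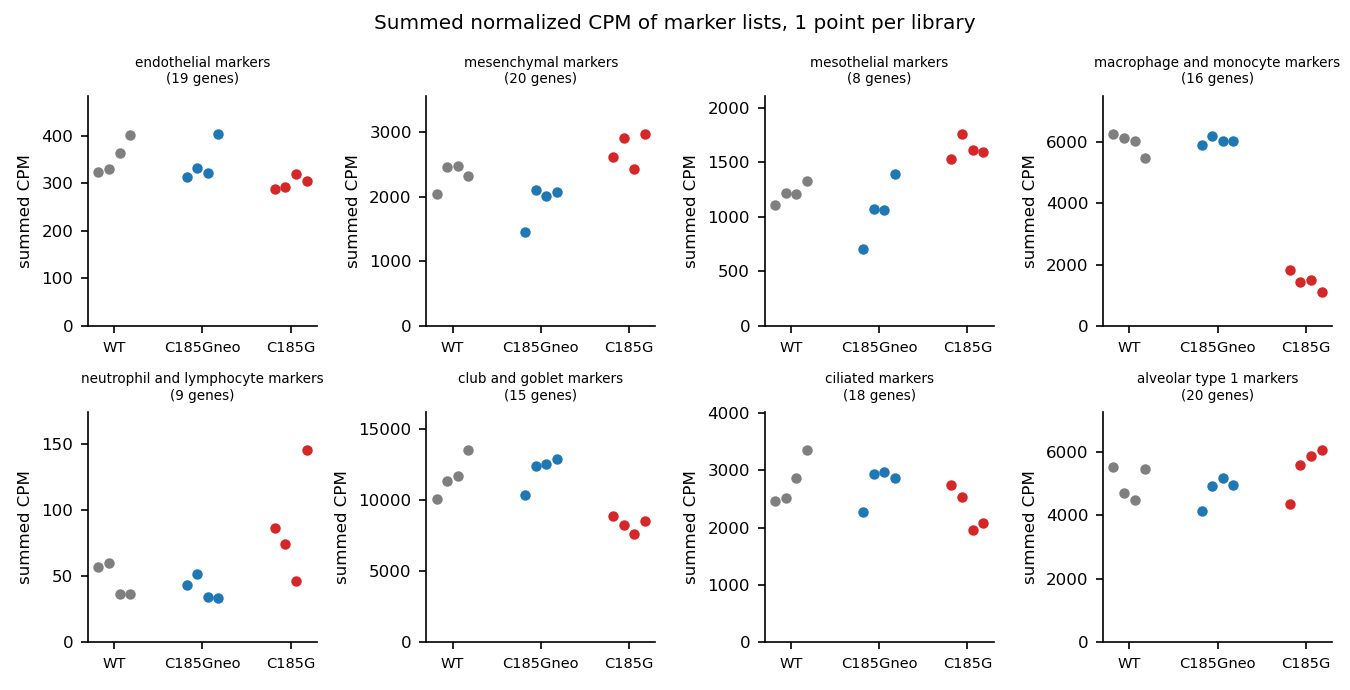
Summed normalized CPM (y axis, from 0) of 8 marker lists in each of the 12 libraries (1 point per library) by genotype (x axis). Mesenchymal and mesothelial sums are higher in all 4 C185G libraries than in any C185Gneo library, the macrophage sum, nearly all Lyz2, is lower, and C185Gneo replicate 1 has the lowest mesenchymal sum (1447) and mesothelial sum (707).

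For some genes the choice of C185Gneo as the control changed the picture, because that genotype itself differed from WT. These genes were picked after their values were seen. Pgk1, phosphoglycerate kinase, measured 421, 299, 350.0 and 293 CPM in C185Gneo and 147, 138, 133 and 152 in C185G, a fall of 1.24 (adjusted p = 1.49e-07), while WT libraries ranged from 73.4 to 79.0. Against WT, C185G was 0.90 higher, and C185Gneo 2.15 higher (adjusted p = 3.41e-08). Its level was thus highest in the hypomorph, and no groups overlapped.

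Muc5b, a secreted mucin of airway cells, measured 575, 491, 577 and 463 CPM in C185Gneo and 132, 224, 192 and 272 in C185G (-1.40, adjusted p = 0.000476), but its difference from WT was 0.23 in C185G (adjusted p = 0.435) and 1.64 in C185Gneo (adjusted p = 0.0141). Among the club and goblet markers, Muc5b included (8 of 15 lower, 1 higher against C185Gneo), Bpifa1, a secreted airway defence protein, had a WT mean of 24.6 CPM and means of 175 in C185Gneo and 38.0 in C185G, and fell by 2.48 against C185Gneo; C185Gneo against WT did not pass (adjusted p = 0.0555). Scgb1a1, the main secretoglobin of club cells, did not pass (-0.14, adjusted p = 0.215), except without C185Gneo replicate 1 (adjusted p = 0.0227).

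Camk2b, a calmodulin-dependent kinase subunit, averaged 11.6 (WT), 48.3 (C185Gneo) and 18.9 (C185G) CPM (-1.40 against C185Gneo, adjusted p = 8.8e-05). Nnt, the transhydrogenase of the inner mitochondrial membrane, averaged 27.2, 63.1 and 19.1 CPM in the same order (-1.79 against C185Gneo, adjusted p = 2.73e-05). The Nnt means of C185Gneo and C185G thus lay on opposite sides of WT. For Camk2b and Nnt the comparison with WT is given as means only.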

How the data were processed

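Total RNA of AEC2 was sequenced in 12 libraries. The deposited values are log2 values; per the submitters' processing notes STAR and limma were used with build mm10, without versions. Each deposited value equals log2 of a whole count plus 0.5, times 1 factor per library; whole counts were recovered for 100.0% of values (within 1e-06), and CPM were computed from them. Totals over the measured genes ranged from 15659512 to 23444287, so 1 read is 0.0428 to 0.0616 CPM. The test was limma 3.58.1 (R 4.3.3; lmFit, eBayes with trend and robust, two-sided) on the deposited log2 values of all 12 libraries with 1 coefficient per genotype, adjusted by Benjamini-Hochberg over 16080 genes. The script was tested on simulated data. Names for 16017 genes came from GENCODE M21, and 63 genes have none; promoters for 11463 measured genes came from RefSeq. Members and the 44 gene lists were chosen with earlier results of these data known. Named genes were Sftpc, Hspa5, Xbp1, Ddit3, Krt8 and Cdkn1a, the 12 largest calls in each direction (mean of at least 5 CPM, groups without overlap, called with each library left out), and per list up to 4 calls with the smallest p and up to 3 against the majority; others were named after their values were seen. Some genes are not reported here. Alternatives covered scaling, low-value filters, weights, the fitted libraries, a replicate block and leaving out each library. Summaries and figures used Python 3.11.15, pandas 2.3.3 and matplotlib 3.10.9.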

Additional observations from a re-analysis of the deposited data

Results flagged for a closer look

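In some genes a single library lay far from the other 3 of its group. The criterion was a gap to the nearest library above Dixon's 95% critical value for 4 samples, as a share of the group's range. It was met by 35 of 664 groups tested (5.27%), and chance gives about 1 in 20. These groups covered the genes picked by the naming rules or for the text, some of which are named only here. They also covered total counts, the share of the most abundant genes and the number of genes with a count of 0. Values are normalized CPM. C185Gneo replicate 1 was the highest of its group for Wfs1 53.29 (others 45.75 to 45.92), Mbtps1 171.6 (others 148.1 to 152.1), Ctsz 207.1 (others 181.4 to 184.8), Uhrf1 10.26 (others 6.154 to 6.613), Bub1 18.52 (others 14.78 to 15.35), Fasn 4628 (others 4264 to 4302) and Eif2ak3 75.36 (others 59.96 to 62.24). C185Gneo replicate 2 was the highest of its group for Psmc3 100.3 (others 91.35 to 92.8), S100a8 4.112 (others 1.026 to 1.487) and Psmb3 67.07 (others 61.51 to 61.88). C185Gneo replicate 4 was the highest of its group for Gsta1 10.22 (others 4.056 to 4.533), Elf3 170.2 (others 150.5 to 151.3), Klf5 216.9 (others 202.5 to 204.6), Srp19 31.99 (others 29.09 to 29.42), Cdh5 15.21 (others 8.78 to 9.879) and Pecam1 32.8 (others 21.06 to 21.23). C185G replicate 1 was the highest of its group for Nrn1 9.219 (others 3.203 to 3.958), Elf3 97.86 (others 74.18 to 77.06), Ern1 148.4 (others 100.1 to 107.2), Creld2 76.02 (others 67.28 to 68) and Nfe2l1 363.5 (others 340.3 to 343.8). C185G replicate 3 was the highest of its group for Klf5 283.6 (others 257.5 to 260.1), Slc7a11 345.4 (others 291.8 to 295.7) and H2-Eb1 97.13 (others 60.49 to 66.53). C185G replicate 4 was the highest of its group for Psme3 105.7 (others 89.72 to 91.64). C185Gneo replicate 1 was the lowest of its group for Vegfa 364.4 (others 463.4 to 471.2), Cbr2 3390 (others 3987 to 4089) and Hopx 50.94 (others 93.46 to 98.19). C185Gneo replicate 3 was the lowest of its group for Akr1b8 41.94 (others 50.74 to 51.7). C185Gneo replicate 4 was the lowest of its group for Uqcrh 69.43 (others 75.37 to 76.12). C185G replicate 1 was the lowest of its group for Ager 673 (others 739 to 745.5). C185G replicate 3 was the lowest of its group for Btg2 222.8 (others 237.3 to 238.4) and Top2a 25.07 (others 33.99 to 35.73). C185G replicate 4 was the lowest of its group for Sftpd 1323 (others 1401 to 1410). The number of genes with a count of 0 was 9 in C185G replicate 4, and 3 to 4 in the other C185G libraries. C185Gneo replicate 1 carried the low Hopx, the high Bub1 and Uhrf1, and the lowest sum of mesothelial markers; the part of the cell mixture in these values was not tested.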

How the results depend on the processing

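Sftpc kept its direction and its call under each alternative run, with log2 differences from 1.604 to 1.765 when 1 library was left out, 2.153 with quantile normalization, and adjusted p from 4.45e-09 to 1.46e-06. Leaving out 1 library at a time gave 4260 to 4802 genes higher, 4154 to 4839 lower, 932 to 1125 over 1 log2 unit higher and 1039 to 1272 lower, and 9 to 11 higher and 6 to 7 lower near Sftpc. A replicate block by title number gave 4647 higher and 4465 lower, 1039 and 1112 past 1 log2 unit, and 1.671 for Sftpc. Deviations of same-numbered libraries correlated at 0.0893, 0.1102, -0.1012 and -0.0503, and those of differently numbered libraries from -0.3046 to 0.2213. Whether same-numbered libraries were prepared together cannot be told from these correlations. Library totals gave 5437 higher and 3923 lower and voom weights 5464 and 3896, while median-of-ratios scaling kept 49.6% of calls higher. Testing only genes with a mean of at least 5 CPM left 578 higher and 618 lower past 1 log2 unit. Over all genes these were 1030 and 1115, so many of the large differences were in genes below that level. Signs turned for Cdh1 with quantile normalization (0.03289), Scgb1a1 with quantile normalization (0.1915), Hsp90b1 with quantile normalization (0.05864), library totals (0.01384) and voom (0.01387), and Ern1 with library totals (0.02404), voom (0.02395) and without C185G replicate 4 (0.02242, with -0.1668 the lowest of the leave-outs). They turned for Eif2ak3 with library totals (0.06273), quality weights (0.04308), voom (0.05583), without C185Gneo replicate 1 (0.07464) and without C185G replicate 1 (0.02348, with -0.03512 the lowest), and for H2-Ob with quality weights (-0.07146) and without C185Gneo replicate 1 (-0.104) or C185G replicate 1 (-0.02582, with 0.2056 the highest); the cause was not tested. Calls lost with quantile normalization included those of Cyp2f2, Npc2, Sftpb, Scd1 and Atf4. The list median turned negative for immunoproteasome and MHC class I genes without C185G replicate 3 (-0.0256) and for glycolysis without C185Gneo replicate 1 (-0.0279) or 2 (-0.00653) or C185G replicate 4 (-0.00863). Restricted to 5 CPM or more, 15 mitotic genes were higher and 5 endothelial genes lower, with list members below that level not tested. Without C185Gneo replicate 1, Msln, Upk1b and Wt1 stood at 1.12, 1.03 and 1.04 against 1.73, 1.60 and 1.72. Below 1 CPM 42.6% of genes were called, against 70.4% above 100 CPM; the part of depth in this was not tested.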

Other observations

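Keratin genes went both ways. Of 18 measured genes of keratins and the cornified envelope 12 rose and 5 fell (median 0.46). Krt17, a keratin of basal and stressed epithelia, was near 0 in C185Gneo, at 0.599, 0.389, 0.297 and 0.29 CPM, and measured 2.94, 5.31, 4.74 and 4.87 in C185G (3.43, adjusted p = 4.2e-06). S100a14 rose by 2.48, Krt19 by 0.43 and Krt18, the partner of Krt8, by 0.26. Krt23 went the other way, from 200.5, 199, 181 and 196 to 89.0, 77.7, 78.3 and 94.9 CPM (-1.20, adjusted p = 3.7e-08), and Krt15 and Krt80 fell by 0.48 and 0.42. Of 8 measured markers of basal and neuroendocrine cells 3 rose and 1 fell, or 3 fell without C185G replicate 1 or with library quality weights. Krt14, counted as higher (1.65), lost its call with the replicate block (adjusted p = 0.052) and without C185Gneo replicate 1 (1.08) or 2 or C185G replicate 1 or 2. Uchl1 and Calca, the calcitonin gene, were higher (Calca 1.39, 3.44 and 9.01 CPM), whereas Syp, synaptophysin of neuroendocrine granules, fell by 1.51, from 2.39, 3.45, 2.44 and 2.73 to 1.18, 1.16, 0.6 and 0.924 CPM (adjusted p = 6.47e-05).

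Autophagy genes split, with 9 of 25 higher and 6 lower (median 0.08), and 3 lower without C185G replicate 4. Sqstm1, the receptor p62, which NRF2 also drives, measured 1293, 1396, 1444 and 1748 CPM in C185Gneo and 2813, 2526, 3144 and 3044 in C185G (0.97, adjusted p = 1.41e-06). Gabarapl1 rose by 0.88, while Map1lc3b and Map1lc3a, of the same family of membrane tags, fell by 0.36 and 0.31. Lysosomal genes were higher in 11 of 30 cases and lower in 6; quantile normalization left 3 lower. Ctsd, cathepsin D, measured 335, 361, 346 and 343 CPM in C185Gneo and 747, 794, 897 and 829.9 in C185G (1.24, adjusted p = 1.26e-09). Of 9 measured metallothionein and zinc transport genes 5 rose and 2 fell, or 1 fell without C185Gneo replicate 1, 2 or 4, with the replicate block or with library totals, as Slc39a8 (-0.44, and -0.26 without C185G replicate 1) then lost its call. The importer gene Slc39a4 rose by 0.41 and the exporter gene Slc30a10 fell by 1.19, from 0.834 to 0.355 CPM. Of 2 measured erythrocyte and platelet markers 1 fell, Pf4 of platelets (1.59 and 0.688 CPM).

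Genes near Sftpc on chromosome 14 showed no common direction. Of 32 measured genes within 2 Mb of it, Sftpc left out, 11 were higher and 6 lower in C185G than in C185Gneo, with a median of 0.02 and a range of -2.31 to 1.44. Lgi3, a secreted leucine-rich repeat protein whose gene adjoins Sftpc, measured 1189, 954, 1092 and 1009.8 CPM in C185Gneo and 264, 199, 211 and 186 in C185G (-2.31, adjusted p = 1.3e-09), while WT averaged 975. Its direction was thus opposite to that of Sftpc.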
